A study of Mus musculus with 98 samples.

Results

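Cortical thymic epithelial cells (cTEC) were set against medullary thymic epithelial cells (mTEC) of newborn mice by bulk RNA sequencing. The members were the 6 libraries whose labels end in D0-WT-cTEC and the 6 whose labels end in D0-WT-mTEC-all, 12 of the 98 samples of the series. All 12 came from wild-type mice at P0, the day of birth, by their labels. The study's methods describe C57BL/6 wild-type mice without tying them to these libraries. Live CD45- cells of enzymatically digested thymus were sorted and taken through an ultra-low input RNA-seq protocol. The stains named for the study include EpCAM, Ly51, UEA-1, MHCII and CD80, but the gates that made a cell cTEC or mTEC, the sex of the mice and any pooling of animals are not given in the sources used here. The labels carry a prefix, TXCK or DFCK, whose meaning is also not given, with 3 libraries of each prefix in each group. The sources do not say whether the libraries came from separate mice, so p-values measure the spread between these libraries, which may be technical. The Y-linked *Ddx3y* had reads only in the fifth cTEC and the fifth mTEC library, at 174 and 63.0 CPM, so those held male cells.

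The thymic cortex and medulla are built by these epithelial lineages. cTEC attract lymphoid progenitors, drive their commitment to the T cell lineage through Notch ligands, and display the peptides that positively select immature thymocytes. mTEC display peptides of proteins that are otherwise made in peripheral organs, a process driven by the regulators AIRE and FEZF2, and so remove or divert self-reactive thymocytes. The transcription factor FOXN1 is required in both lineages.

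Libraries held 8481373 to 12385096 gene counts in cTEC and 10017653 to 12839118 in mTEC. Of 39179 Ensembl genes, 14901 passed a filter on low counts and were tested with edgeR's quasi-likelihood test. At an adjusted p under 0.05, 6481 genes (43.5%) were called, of which 2432 genes (16.3%) were higher in cTEC and 4049 (27.2%) were higher in mTEC. Levels are CPM, read counts scaled to a common library total with TMM, and log2 fold changes are cTEC minus mTEC throughout, with a median over all tested genes of -0.13. A number in parentheses after a gene name is its log2 fold change. All values of a gene in the 6 cTEC libraries lay above all its values in mTEC for 9.91% of tested genes and below them for 21.1%. Of the called genes, 2600 were over 4-fold higher in mTEC and 480 over 4-fold higher in cTEC. No read in any cTEC library was found for 916 tested genes, which could pass the filter through mTEC alone and were all called higher in mTEC, and the reverse held for 1 gene. Within the TXCK libraries alone 5839 genes were called, and within the DFCK libraries alone 4141, in each case with 3 libraries a group. The fourth mTEC library, which carries the DFCK prefix, detected the fewest genes of its group. Without it 2389 genes were higher in cTEC and 4208 in mTEC.

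The markers that define the lineages followed both labels. *Epcam*, the surface marker of both, was at 262 to 303 CPM in cTEC (median 273) and at 497 to 629 CPM in mTEC (median 547). *Psmb11*, the thymoproteasome subunit made in cTEC, was at 222 to 417 CPM in cTEC (median 371) and at 7.27 to 30.5 CPM in mTEC (median 9.98). *Aire*, the regulator of promiscuous expression in mTEC, had no read in 5 of 6 cTEC libraries, reached 2.76 CPM in the remaining one, and was at 198 to 328 CPM in mTEC (median 250.4). *Fezf2* had 1 read over all 6 cTEC libraries and 306 to 609 CPM in mTEC. The 250 bases before the start sites of 6 genes are shown. *Psmb11* and the chemokine gene *Cxcl12* stand for cortical and *Aire* and *Fezf2* for medullary markers, and were picked with their motif counts known. *Kcne4* and *Krt20* are the genes with the largest fold change toward cTEC and mTEC by the rule given further on. Capitals mark GACGC or its reverse complement GCGTC, the core motif of FOXN1. The sequences are from RefSeq and run 5′ to 3′ toward the start of the gene.
Psmb11 promoter, GRCm38.p6 chr14:54625060-54625309, plus strand: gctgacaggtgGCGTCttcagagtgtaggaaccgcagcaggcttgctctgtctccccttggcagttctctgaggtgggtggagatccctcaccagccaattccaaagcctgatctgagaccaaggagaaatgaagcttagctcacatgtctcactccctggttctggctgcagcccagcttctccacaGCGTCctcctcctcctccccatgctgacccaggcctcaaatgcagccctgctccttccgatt
Cxcl12 promoter, GRCm38.p6 chr6:117168285-117168534, plus strand: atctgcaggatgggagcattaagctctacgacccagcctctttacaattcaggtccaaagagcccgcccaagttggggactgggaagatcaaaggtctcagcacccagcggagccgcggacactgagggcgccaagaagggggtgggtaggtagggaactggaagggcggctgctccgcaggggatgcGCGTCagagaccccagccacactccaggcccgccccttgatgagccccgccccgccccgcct
Aire promoter, GRCm38.p6 chr10:78043611-78043860, minus strand: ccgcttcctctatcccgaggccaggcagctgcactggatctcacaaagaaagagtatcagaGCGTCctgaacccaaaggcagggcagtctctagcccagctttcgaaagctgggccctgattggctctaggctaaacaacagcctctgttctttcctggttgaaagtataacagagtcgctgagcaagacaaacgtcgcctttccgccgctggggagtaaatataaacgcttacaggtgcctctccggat
Fezf2 promoter, GRCm38.p6 chr14:12345866-12346115, minus strand: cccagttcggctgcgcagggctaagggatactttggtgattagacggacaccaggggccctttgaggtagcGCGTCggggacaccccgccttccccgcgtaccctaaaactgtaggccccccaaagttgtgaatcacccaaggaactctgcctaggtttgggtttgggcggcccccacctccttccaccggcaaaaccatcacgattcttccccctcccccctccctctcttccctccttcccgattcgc
Kcne4 promoter, GRCm38.p6 chr1:78816661-78816910, plus strand: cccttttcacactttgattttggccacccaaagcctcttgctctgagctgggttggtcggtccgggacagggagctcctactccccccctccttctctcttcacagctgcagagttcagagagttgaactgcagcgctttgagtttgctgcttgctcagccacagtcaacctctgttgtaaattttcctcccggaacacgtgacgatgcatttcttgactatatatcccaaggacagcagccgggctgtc
Krt20 promoter, GRCm38.p6 chr11:99438154-99438403, minus strand: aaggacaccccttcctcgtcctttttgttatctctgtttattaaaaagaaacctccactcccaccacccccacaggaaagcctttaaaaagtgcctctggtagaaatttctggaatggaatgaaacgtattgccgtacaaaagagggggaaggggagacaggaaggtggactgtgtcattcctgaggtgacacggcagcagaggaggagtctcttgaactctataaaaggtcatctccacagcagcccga

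Of these windows *Psmb11* held 2 matches to GACGC on one strand or the other, *Cxcl12*, *Aire* and *Fezf2* held 1 each, and *Kcne4* and *Krt20* held none. Over the same 250 bases the motif was in 22.6% of all 27025 promoters of the RefSeq table, in 39.5% of those of genes higher in cTEC, in 27.4% of those of genes higher in mTEC and in 40.3% of those of tested genes that were not called. Among genes over 4-fold higher it was 34.3% on the cortical and 21.4% on the medullary side, against 36.6% of all tested genes with an entry, and it was in 1 of 25 tissue-restricted antigens. Of the 12 genes named by fold change in each direction, 2 of 10 with an entry held it on the cortical and 2 of 9 on the medullary side. It was found in 6 of 13 cortical marker genes with an entry and in 3 of 13 medullary ones. These windows differed in CpG content, and the motif itself holds a CpG. The median number of CG dinucleotides was 15 for genes higher in cTEC, 16 for genes not called and 10 for genes higher in mTEC. It was 6 for genes over 4-fold higher in mTEC, the same as over all promoters, and 2 for the tissue-restricted antigens described further on. A promoter entry was found for 11085 of the 14901 tested genes, at the first listed start site. These are descriptions of letters and not of binding.

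The list of cortical genes was chosen with earlier results of these data known, so its count is a description. Its genes were higher in cTEC without exception. All 16 of 16 genes on a list of cortical epithelium passed the test in that direction, against 16.3% of all tested genes, with a median log2 fold change of 2.62. *Psmb11* had a log2 fold change of 4.43 (SE 0.393, adjusted p = 5.07e-07). *Prss16*, a serine protease that shapes MHC class II peptides in the cortex, was at 8064 to 17563 CPM in cTEC (median 11724) and at 272 to 1007 CPM in mTEC (median 540.0). Its groups did not overlap, and its log2 fold change was 4.42 (SE 0.345). Within mTEC it was at 272 to 436 CPM in the TXCK and at 644 to 1007 CPM in the DFCK libraries. *Cxcl12*, the chemokine that holds early thymocytes in the cortex, was at 1330.3 to 1807 CPM in cTEC (median 1521) and at 25.2 to 126 CPM in mTEC (median 76.2), a log2 fold change of 4.40 (SE 0.378, adjusted p = 3.75e-07). Within mTEC its 3 lowest values were the TXCK libraries, and its log2 fold change was 5.27 within TXCK and 3.92 within DFCK libraries. *Ly75*, which encodes the endocytic receptor DEC-205, was at 261 to 515 CPM in cTEC (median 444) and at 0 to 38.1 CPM in mTEC (median 18.5). The Notch ligand *Dll4* was at 93.4 to 148.2 CPM in cTEC (median 111.9) and at 11.2 to 35.5 CPM in mTEC (median 18.5), again with no overlap. The cytokines *Kitl* and *Il7*, survival and growth factors of thymocyte progenitors, had log2 fold changes of 3.07 and 1.85.

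*Foxn1* was the exception to this separation. It was at 131.9 to 678 CPM in cTEC (median 558) and at 135.7 to 259.9 CPM in mTEC (median 222), and the groups overlapped (log2 fold change 1.15, SE 0.355, adjusted p = 0.0167). The 2 lowest cTEC values, 131.9 and 195 CPM, came from DFCK libraries. *Foxn1* was not called within the DFCK libraries alone (log2 fold change 0.79, adjusted p = 0.364). *Pax1*, *Pax9* and *Isl1*, transcription factors of the pharyngeal pouch, were higher in cTEC with log2 fold changes of 1.33, 1.20 and 1.81.

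**Figure D1:**
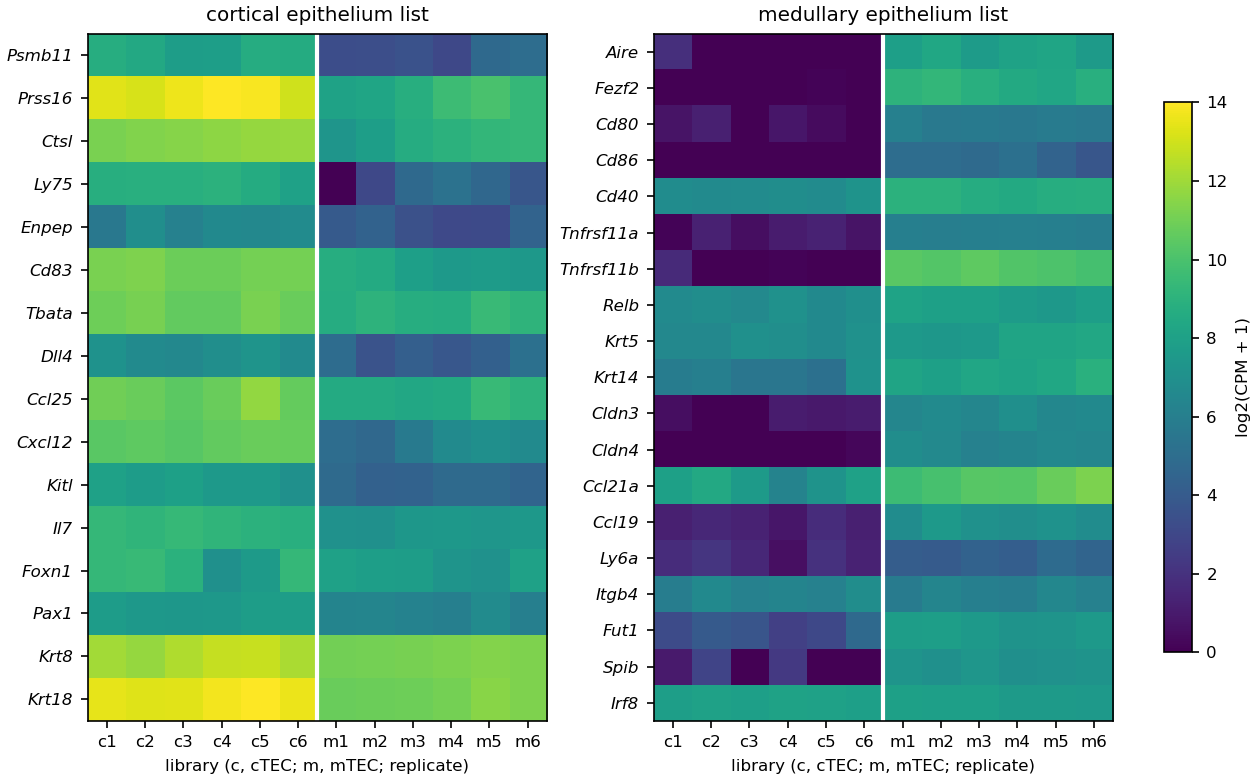
Levels of the cortical list (left) and the medullary list (right) in each of the 12 libraries at P0, as log2(CPM + 1), with columns c1 to c6 for cTEC and m1 to m6 for mTEC replicates and a white line between the groups. All 16 cortical genes were called higher in cTEC and 17 of 19 medullary genes higher in mTEC, and Foxn1 is dimmer in c4 and c5 than in the other cTEC libraries.

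The 12 genes with the largest fold change toward cTEC, among called genes with a mean of at least 10 CPM and no overlap of libraries, were *Kcne4*, *Nkx2-2os*, *Slc36a1*, *Itgb7*, *Fmo1*, *Col8a2*, *Kcnk2*, *Samd5*, *Ly75*, *Psmb11*, *Prss16* and *Ackr4*. *Kcne4*, a regulatory subunit of potassium channels, was at 32.1 to 71.7 CPM in cTEC (median 42.1) and had no read in any of the 6 mTEC libraries. It was the only tested gene with no read in mTEC, and was at least 1025-fold higher in cTEC against a floor of 3 counts over the group. *Fmo1*, a flavin-containing monooxygenase, was at 477 to 786 CPM in cTEC (median 677) and at 11.2 to 48.3 CPM in mTEC (median 18.04), a log2 fold change of 4.64 (SE 0.384, adjusted p = 2.59e-07). *Itgb7*, the beta 7 integrin chain, was at 49.8 to 87.9 CPM in cTEC (median 70.2) and at 0 to 6.09 CPM in mTEC (median 1.79). *Ackr4*, an atypical receptor that scavenges CCL19, CCL21 and CCL25, was at 350.1 to 526 CPM in cTEC (median 392) and at 6.14 to 35.8 CPM in mTEC (median 19.1), a log2 fold change of 4.42. *Kcnk2*, a potassium channel of the TREK family, was at 67.7 to 162.5 CPM in cTEC (median 87.7) and at 0.320 to 10.2 CPM in mTEC (median 4.499). *Nkx2-2os* is an antisense transcript, and since no strand setting is given, its reads cannot be told from those of its partner gene.

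On the medullary side, 17 of 19 genes of a medullary list were higher in mTEC and none in cTEC, against 27.2% and 16.3% of all tested genes, with a median log2 fold change of -6.13. This list too was chosen with earlier results known. *Tnfrsf11b*, which encodes the decoy receptor osteoprotegerin, was at 0 to 2.21 CPM in cTEC (median 0) and at 920.3 to 1452 CPM in mTEC (median 1203), a log2 fold change of -11.58 (SE 0.683, adjusted p = 9.77e-09). Its counterpart *Tnfrsf11a*, the receptor RANK that drives mTEC maturation, was at 0.0920 to 1.53 CPM in cTEC (median 0.871) and at 60.0 to 67.6 CPM in mTEC (median 64.4). The tight junction gene *Cldn4* had 2 reads over the 6 cTEC libraries and was at 71.0 to 116 CPM in mTEC, a ratio of 2915 with a 95% counting interval of 807 to 24073. The costimulatory gene *Cd80* was at 0 to 1.31 CPM in cTEC (median 0.483) and at 48.4 to 66.999 CPM in mTEC (median 50.6), and *Cd86* was at 12.6 to 35.0 CPM in mTEC (median 29.3) and had no read in any of the 6 cTEC libraries, so that the filter fixed its direction. *Krt14* and *Krt5*, keratins of basal epithelium, were also present in cTEC, and their differences were smaller, with log2 fold changes of -2.33 and -1.11. Neither the integrin gene *Itgb4* (82.4 ± 20.5 and 70.4 ± 13.1 CPM in cTEC and mTEC, SD, n = 6) nor *Irf8* (248 ± 13.0 and 218 ± 23.8 CPM) passed the test.

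The 12 genes with the largest fold change toward mTEC by the same rule were *Krt20*, *Cyp26a1*, *Cdh17*, *Tmprss11d*, *Serpinb12*, *Myog*, *Slc4a8*, *Fezf2*, *5330417C22Rik*, *Pdyn*, *Dsg1a* and *Ccl22*. Apart from *Fezf2*, none had a read in any cTEC library, so their rank depends on the small count that edgeR adds. *Krt20*, an intestinal keratin, was at 201 to 455 CPM in mTEC, at least 6889.8-fold above the floor of cTEC. *Cyp26a1*, which degrades retinoic acid, was at 165 to 407 CPM (at least 5753-fold higher). *Cdh17*, a cadherin of liver and intestine, was at least 5693-fold higher, and *Myog*, the myogenic regulator myogenin, at least 5143-fold. *Myog* ranged within mTEC from 87.1 to 349 CPM. *Pdyn*, the prodynorphin gene, and *Dsg1a*, a desmosomal cadherin of keratinocytes, were at 177 ± 29.7 and 174.7 ± 32.7 CPM in mTEC (SD, n = 6). *Ccl22*, a chemokine for CCR4-bearing cells, was at 162.9 ± 47.5 CPM.

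The breadth of expression differed as well. When every library was thinned to the 8481373 counts of the smallest, the cTEC libraries held 14667 to 15158 genes with a read and the mTEC libraries 18024 to 20136.5. The means were 14959 ± 165 and 19547 ± 787 genes (SD, n = 6), a difference of 4588 genes (two-sided exact permutation p = 0.00216, the smallest that 924 splits can give). Protein-coding genes alone gave 12327.5 ± 93.2 and 16166 ± 561. The lowest mTEC library, the fourth, still held more genes than the highest cTEC library. Within TXCK libraries the difference was 5061 genes and within DFCK libraries 4116, where 3 against 3 libraries cannot go below an exact p of 0.1. At the same time the 50 most abundant genes took a larger share of mTEC counts (22.6 ± 0.740%) than of cTEC counts (19.6 ± 0.788%; two-sided exact permutation p = 0.00216, n = 6). There were 891 genes with no read in cTEC and at least 1 CPM in each mTEC library, and 1 gene with the reverse pattern.

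**Figure D2:**
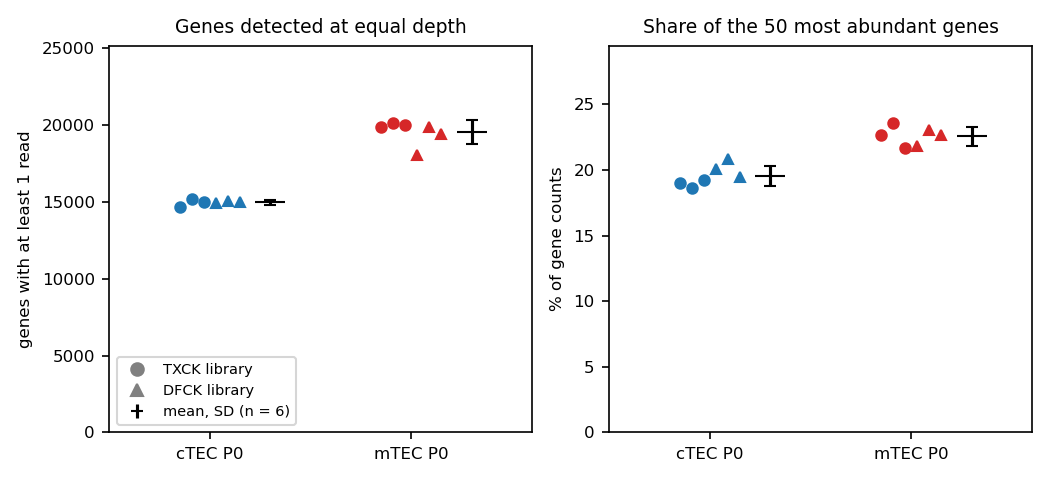
Genes with at least 1 read after thinning each library to 8481373 counts (left) and the share of counts held by the 50 most abundant genes (right), for 6 cTEC and 6 mTEC libraries at P0, with circles for TXCK and triangles for DFCK libraries and black bars for mean and SD. The mTEC libraries all lie above the cTEC libraries in both panels, and the lowest mTEC point on the left is the fourth library.

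Genes known for peripheral organs are a hallmark of mTEC. Of 36 tissue-restricted antigens on a list, 35 were in the table and 19 passed the filter, which they could pass through mTEC alone. All 19 were called higher in mTEC, but 7 of them had no read in cTEC, so that the filter fixed their direction, and the count does not speak for the list. *Csn2*, the milk protein beta-casein, was at 0 to 5.89 CPM in cTEC (median 0.194) and at 527 to 974 CPM in mTEC (median 881), a log2 fold change of -9.43 (SE 0.814, adjusted p = 3.96e-07). *Reg3g*, an antimicrobial lectin of the intestine, was at 0.345 to 0.962 CPM in cTEC (median 0.629) and at 159 to 242 CPM in mTEC (median 191.2). *Apoa1*, the main apolipoprotein of high-density lipoprotein, had 1 read in cTEC and 33.9 to 57.1 CPM in mTEC. *Gad1*, the GABA-synthesising enzyme, and *Chrna1*, the muscle acetylcholine receptor subunit, had no read in cTEC and were at 53.99 ± 14.3 and 36.7 ± 11.2 CPM in mTEC. The members that did not pass the filter had low counts, among them the insulin gene *Ins2*, with no read in cTEC and 0.0827 to 0.714 CPM in mTEC.

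Specialised cells that resemble those of other organs arise within the medulla. Members of 3 lists of their genes could likewise pass the filter through mTEC alone, and 4 of the tested tuft cell genes, 4 of the cornified and secretory ones and 8 of the neuroendocrine, ciliated and muscle ones had no read in cTEC, so that their direction was fixed by the filter. Over all tested genes 27.2% were higher in mTEC and 16.3% in cTEC. Of a list of tuft cell genes 11 of 16 were tested, and 7 were higher in mTEC and none in cTEC. *Avil*, an actin regulator of tuft cells, was at 26.1 to 127.1 CPM in mTEC (median 58.7) and had no read in any of the 6 cTEC libraries, while *Pou2f3*, the tuft cell regulator, was at 7.13 ± 4.90 CPM in cTEC and 12.3 ± 7.12 CPM in mTEC (SD, n = 6) and was not called. Of 14 tested genes of cornified and secretory cells, 11 were higher in mTEC. *Gp2*, the receptor for bacterial FimH on microfold cells, was at 0 to 9.33 CPM in cTEC (median 0.405) and at 220.1 to 463 CPM in mTEC (median 272), a log2 fold change of -7.06, and *Muc1* was at 66.5 to 106 CPM in mTEC (median 95.3) and had no read in any of the 6 cTEC libraries. Of 19 tested genes of neuroendocrine, ciliated, muscle and other mimicked cell types, 17 were higher in mTEC. They included *Insm1* of neuroendocrine cells (19.7 ± 3.90 CPM in mTEC), *Foxi1* of ionocytes (28.3 ± 18.4 CPM) and *Ckm* of muscle (54.7 ± 17.9 CPM), each with no read in cTEC. *Chga*, a neuroendocrine granule protein, was not called. It was at 0 to 44.5 CPM in cTEC (median 1.06) and at 1.82 to 23.8 CPM in mTEC (median 11.2), and its highest value was in the fifth cTEC library. It was called higher in mTEC without that library (-3.41, adjusted p = 0.0179 in edgeR) and within the TXCK libraries (-4.74, adjusted p = 0.0058), and lay at 1.53, not called, within the DFCK libraries.

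The shares called among *Aire* and its partner proteins were near those over all tested genes. Of 17 genes on a list of *Aire* and its partners, 6 were higher in mTEC, 2 in cTEC and 9 were not called, with a median log2 fold change of -0.08, against 27.2% higher in mTEC and 16.3% higher in cTEC over all tested genes. *Xrcc5*, which encodes the Ku80 subunit of the DNA end-binding complex, was at 149.6 to 238 CPM in cTEC (median 211) and at 21.0 to 72.5 CPM in mTEC (median 35.3), a log2 fold change of 2.38 (SE 0.250, adjusted p = 2.46e-06). *Top1* was higher in cTEC too (0.58). *Parp1* and *Sirt1* were higher in mTEC (-2.03 and -2.32), while *Hipk2* (46.8 ± 7.53 and 38.5 ± 6.51 CPM in cTEC and mTEC, SD, n = 6) did not pass the test. In the TNF receptor and NF-kB axis, through which RANK, CD40 and the lymphotoxin receptor act on mTEC, 13 of 21 genes were higher in mTEC and 3 in cTEC. *Cd40*, *Relb* and *Nfkb2* were higher in mTEC (-1.93, -1.04 and -1.19). All mTEC values of *Ikbkb*, *Nfkbia* and *Nfkbie* also lay above all their cTEC values, while those of *Map3k14* overlapped between the groups. The lymphotoxin receptor *Ltbr* was at 61.3 to 95.2 CPM in cTEC (median 69.7) and at 8.35 to 33.5 CPM in mTEC (median 27.3) and was higher in cTEC (log2 fold change 1.66), as were *Nfkb1* (1.46) and *Traf5* (2.27).

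Genes of antigen presentation were counted by pathway. Of 19 genes of the MHC class II pathway, 13 were higher in mTEC and 4 in cTEC, against 27.2% and 16.3% of all tested genes, with a median log2 fold change of -1.37. The chains *H2-Aa*, *H2-Ab1* and *H2-Eb1* and the invariant chain *Cd74* were abundant in both groups and higher in mTEC, with log2 fold changes of -1.38, -0.82, -1.37 and -1.38. Their transactivator *Ciita* was at 223 ± 74.9 CPM in cTEC and 230.3 ± 69.1 CPM in mTEC (SD, n = 6) and was not called. Lysosomal proteases were called in both directions. *Ctss*, cathepsin S, was at 7.99 to 18.03 CPM in cTEC (median 11.4) and at 579 to 692 CPM in mTEC (median 648), a log2 fold change of -5.67 (SE 0.215, adjusted p = 2.05e-10). *Ctsh* and *Ctsz* had log2 fold changes of -6.44 and -5.29. In cTEC the higher proteases were *Prss16*, *Ctsl* of the cortex (2.82), *Ctsd* (0.99) and the legumain gene *Lgmn* (0.77). *Ctsl* was at 2295 to 3626 CPM in cTEC (median 2969) and at 156.4 to 634 CPM in mTEC (median 457). Within mTEC it was at 156.4 to 402 CPM in the TXCK and at 513 to 634 CPM in the DFCK libraries.

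In the class I pathway, of 18 genes, 8 were higher in mTEC, 5 in cTEC and 5 were not called, with a median log2 fold change of -0.17, against 27.2% higher in mTEC and 16.3% in cTEC over all tested genes. The heavy chains *H2-K1* and *H2-D1* and *B2m* were higher in mTEC by log2 fold changes of -1.81, -1.87 and -1.89. Catalytic subunits of the proteasome went different ways. The immunoproteasome subunit *Psmb8*, the counterpart of *Psmb11* at the same catalytic site, was at 8.29 to 21.1 CPM in cTEC (median 17.6) and at 148.4 to 236 CPM in mTEC (median 178.6), a log2 fold change of -3.54, with no overlap. The other immunoproteasome subunits, *Psmb9* and *Psmb10*, were higher in cTEC (1.27 and 0.75), and the constitutive subunit *Psmb5* was not called (54.7 ± 18.1 and 59.1 ± 16.3 CPM in cTEC and mTEC). The proteasome activators *Psme1*, *Psme2* and *Psme3* were all higher in mTEC (-4.14, -1.90 and -2.56), as was the class I transactivator *Nlrc5*, which had 9 reads over the 6 cTEC libraries. *H2-K1* and *H2-D1* belong to a family of similar genes, so reads may have been split or dropped between members.

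**Figure D3:**
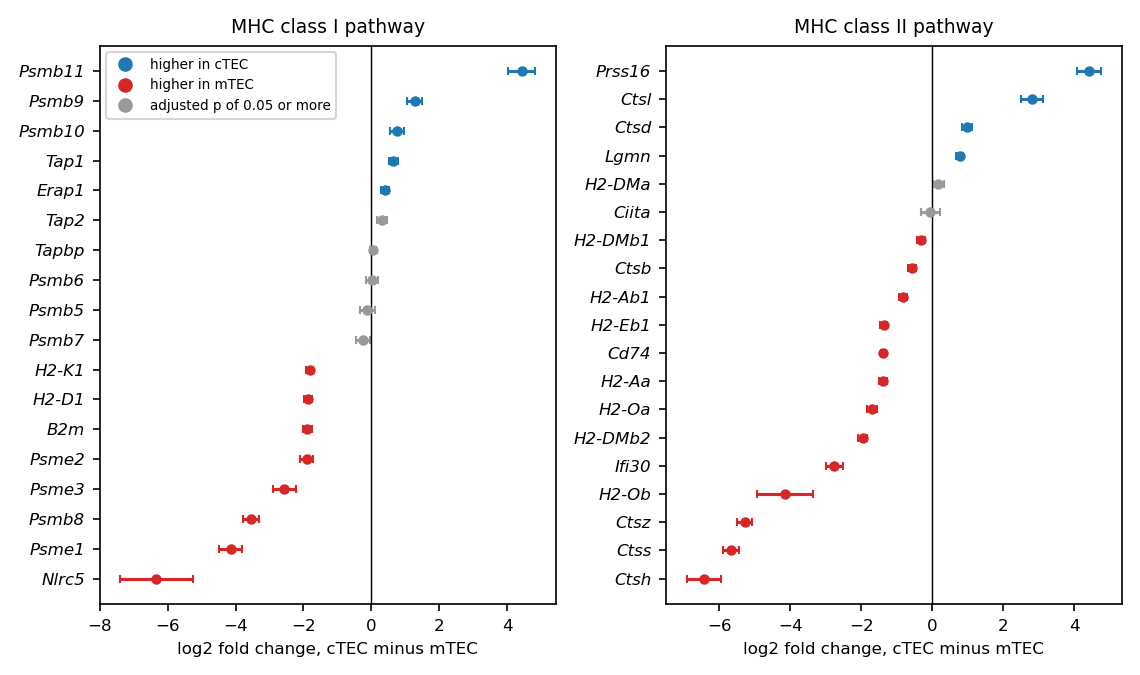
Log2 fold change (cTEC minus mTEC, points) and its standard error (bars) at P0 for the tested genes of the MHC class I (left) and class II (right) pathways, 6 libraries a group. Psmb11 and Prss16 lie at the cortical end of their panels, and Ctsh, Ctss and Ctsz at the medullary end of the right panel.

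Chemokines were called in both directions. Of 22 on a list, 18 were tested, 2 were higher in cTEC and 10 in mTEC, against 16.3% and 27.2% of all tested genes. Of the 18, 6 were not called, and 2 of the 10 had no read in cTEC. The cortical pair was *Cxcl12* and *Ccl25*, the CCR9 ligand, which was at 1445 to 3454 CPM in cTEC (median 1799) and at 338 to 699 CPM in mTEC (median 376), a log2 fold change of 2.18 (SE 0.232, adjusted p = 2.80e-06). *Ccl21a* and *Ccl19*, the CCR7 ligands that draw positively selected thymocytes to the medulla, were higher in mTEC. *Ccl21a* was at 76.2 to 344 CPM in cTEC (median 224) and at 759.6 to 2456 CPM in mTEC (median 1284), a log2 fold change of -2.75, and near-identical copies of this gene make its count uncertain. *Ccl19* was at 0.777 to 2.42 CPM in cTEC (median 1.44) and at 111 to 189.9 CPM in mTEC (median 129). *Cxcl13*, a B cell attractant, and *Cxcl9*, a CXCR3 ligand, had log2 fold changes of -6.04 and -5.77, and *Ccl20*, the CCR6 ligand, had no read in cTEC and was at 16.1 ± 5.19 CPM in mTEC (SD, n = 6). *Cxcl16* was not called, at 111 ± 17.9 and 97.8 ± 10.8 CPM. Of 11 tested genes on a list of cytokines and growth factors, 3 were higher in cTEC, namely *Il7*, *Kitl* and the receptor gene *Il15ra* (0.83). Another 3 were higher in mTEC, namely *Tgfb2* (-2.03), *Bmp2* (-3.06) and *Igf1* (-4.05). Over all tested genes the shares were 16.3% and 27.2%.

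In the Notch pathway 7 of 14 tested genes were higher in cTEC and 2 in mTEC, against 16.3% and 27.2% of all tested genes. Among ligands, *Jag2* (2.64) and *Dll1* (2.07) joined *Dll4* on the cortical side. The receptor *Notch2* (1.73) and the target genes *Hey1* and *Hes1* (0.89) were higher there too. *Hey1* was at 173.3 to 281 CPM in cTEC (median 226) and at 27.8 to 48.0 CPM in mTEC (median 35.6), a log2 fold change of 2.68 (SE 0.168, adjusted p = 1.76e-08). The glycosyltransferases that tune Notch signals went both ways, *Rfng* higher in cTEC (0.93) and *Mfng* in mTEC, where it was at 22.9 to 57.6 CPM in mTEC (median 49.1) and had no read in any of the 6 cTEC libraries. Among TEC transcription factors 8 of 16 were higher in cTEC and 4 in mTEC, the latter near the share over all tested genes. *Trp63*, the regulator of stratified epithelia, was at 1216 to 2192 CPM in cTEC (median 1273) and at 149.5 to 463 CPM in mTEC (median 309), a log2 fold change of 2.36 (SE 0.255, adjusted p = 3.26e-06), and *Meis1* had a log2 fold change of 2.21. *Stat3* (-1.42), *Gata3* (-1.86) and *Tbx3* (-6.50) were higher in mTEC. *Tbx1*, the pharyngeal gene that is deleted in other animals of the series, was not tested, with no read in cTEC and 0.721 to 15.05 CPM in mTEC.

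Of 21 Wnt, BMP and FGF genes 6 were higher in cTEC and 7 in mTEC, against 16.3% and 27.2% of all tested genes. *Wnt4* and the receptors *Lgr4*, *Bmpr1a* and *Fgfr2*, the last of these the receptor for the TEC growth factor FGF7, were higher in cTEC (2.13, 1.26, 1.36 and 1.44). The ligands *Wnt10a* and *Wnt10b* were higher in mTEC. *Wnt10a* was at 0 to 6.26 CPM in cTEC (median 1.78) and at 157 to 302 CPM in mTEC (median 203), a log2 fold change of -6.38 (SE 0.545, adjusted p = 3.61e-07).

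Of 16 tested keratins 3 were higher in cTEC and 11 in mTEC, against 16.3% and 27.2% of all tested genes. *Krt8* and *Krt18*, the pair of simple epithelia, and *Krt7* were higher in cTEC (1.19, 2.53 and 1.12). Of those higher in mTEC, 4 had no read in cTEC and could pass the filter through mTEC alone. The 11 genes ran from the basal *Krt15* (45.4 to 139.1 CPM in mTEC, 5 reads over the 6 cTEC libraries) to the suprabasal *Krt1* (-4.34) and *Krt4* (-7.44). *Krt17*, at 1477 ± 298 CPM in cTEC and 1663 ± 284 CPM in mTEC (SD, n = 6), did not pass the test.

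Interferon-stimulated genes were higher in cTEC in 12 of 21 cases and in mTEC in none, with a median log2 fold change of 1.02, against 16.3% and 27.2% of all tested genes. With relative log expression scaling *Usp18* (-0.49) was called higher in mTEC, and with DESeq2 both *Usp18* (-0.49) and *Mx1* (-2.71) were. In edgeR *Usp18* was also called higher in mTEC within the TXCK libraries alone (-0.52, adjusted p = 0.0427). *Irf9*, a transcription factor of the type I interferon response, *Ifi44*, *Gbp3* and *Isg15* had log2 fold changes of 1.59, 2.63, 2.01 and 1.92. *Ifi44* was at 155.9 to 254 CPM in cTEC (median 195) and at 19.7 to 44.4 CPM in mTEC (median 32.5), with no overlap. *Oas1a* (71.8 ± 8.09 and 80.97 ± 12.3 CPM in cTEC and mTEC) was not called.

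Cell cycle genes were higher in mTEC in 18 of 24 cases and in cTEC in none, with a median log2 fold change of -1.09, against 27.2% and 16.3% of all tested genes. The mitotic kinase *Cdk1* was at 23.0 to 44.1 CPM in cTEC (median 30.005) and at 68.4 to 108.2 CPM in mTEC (median 100.4), a log2 fold change of -1.61. *Rrm2*, for nucleotide synthesis, and *Ccnd1*, the G1 cyclin, had log2 fold changes of -1.80 and -3.52. *Mki67* was at 4.06 ± 5.09 CPM in cTEC and 17.3 ± 7.26 CPM in mTEC and was not called (adjusted p = 0.0677 in edgeR). It was called with DESeq2 (-2.16) and in edgeR without the second (-2.73) or the fifth (-2.54) cTEC library.

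Some markers of other cell types differed between the groups. Of tested genes, 4 of 12 thymocyte, 3 of 5 fibroblast, 3 of 4 mural and 3 of 4 endothelial genes were higher in mTEC. The remaining 8, 2, 1 and 1 were not called. All 8 myeloid, 3 B cell, 2 mesothelial and 2 erythroid genes tested were higher in mTEC. Over all tested genes 27.2% were higher in mTEC. Markers could pass the filter through mTEC alone. Of those tested, 3 myeloid, 2 B cell, 1 mesothelial and 1 endothelial gene had no read in cTEC, so the filter fixed their direction. The summed level of 14 thymocyte genes was 30.98 to 62.2 CPM in cTEC and 59.5 to 119.1 CPM in mTEC, with *Ptprc*, the gene of CD45, at a median of 1.56 and 8.43 CPM. Sums over 10 myeloid genes were 2.94 to 8.85 CPM in cTEC and 303 to 429 CPM in mTEC, with 5 of the 10 at 0 in cTEC. The ranges in cTEC and mTEC were 88.0 to 179.2 and 2366 to 3551 CPM for 5 mural genes. For 6 fibroblast genes they were 15.6 to 124.4 and 401 to 507 CPM, and for 3 mesothelial genes 0 to 3.27 and 824 to 1066 CPM. For 4 B cell genes the sums in cTEC and mTEC were 0 to 1.37 and 34.2 to 70.9 CPM. They were 0 to 9.36 and 21.9 to 46.9 CPM for 6 endothelial genes. For 6 erythroid genes they were 0 to 1.70 and 8.73 to 50.9 CPM. Single members led these sums in mTEC, *Rgs5* of pericytes at 2625 ± 420.3 CPM, *Msln* of mesothelium at 905 ± 102.996 CPM, *Dcn* of fibroblasts at 231 ± 35.0 CPM, ahead of *Col1a1* at 165 ± 19.5 CPM, and *Lyz2* of myeloid cells at 153 ± 23.9 CPM (SD, n = 6). Among further members, *Upk3b* of mesothelium was at 20.9 to 54.6 CPM in mTEC, *Lum* of fibroblasts at 37.2 to 57.9 CPM and *Pdgfrb* of mural cells at 19.4 to 30.8 CPM, while *Pdgfra* and *Wt1* were at most 4.84 and 10.003 CPM. Of these *Upk3b*, *Pdgfra* and *Wt1* had no read in cTEC. Other members were low or alike in the groups. *Kcnj8* of pericytes had no read in cTEC and at most 2.56 CPM in mTEC. *Myh11* of the mural list was at 24.2 to 88.8 CPM in cTEC and at 40.8 to 93.5 CPM in mTEC. *Col3a1* of the fibroblast list was at 0.0807 to 9.38 CPM in cTEC and at 0 to 10.1 CPM in mTEC. The part of such markers in the mTEC values was not tested. In bulk counts fewer cells of a type and less RNA per cell cannot be told apart either. Sums for 3 parathyroid genes were 1.93 to 149.2 CPM in cTEC and 9.61 to 34.7 CPM in mTEC, led by *Pth*, the parathyroid hormone gene, in the third and the fifth cTEC library. *Casr*, the other tested member, lay the other way, at 0.848 to 15.6 CPM in cTEC and 6.49 to 33.1 CPM in mTEC. It was not called in edgeR but was called higher in mTEC with DESeq2 (-1.41). *Pth* was called higher in cTEC (4.26), though not without the fifth library (2.80, adjusted p = 0.112), within TXCK libraries (2.48) or within DFCK libraries (6.32), and the part of these markers in the cTEC values was not tested. Of 3 thyroid genes only *Slc5a5* was tested, and it was higher in cTEC (2.02).

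Single cells of newborn wild-type thymus gave the position of these genes within the epithelium. The 3 wild-type libraries of Ter119-CD45- stroma, fixed before capture and freed of doublets by the authors, held 11151 cells, of which 4390 carry one of 9 epithelial labels given by the authors. Between 2 and 5 cell barcodes were shared by any pair of libraries. Counts were summed per label and are given as CPM of UMIs pooled over libraries, in places with the range over the libraries that hold the label, and with no test, since labels were made from these counts. No correction for free RNA in the droplets was made here. *Psmb11* was at 285 CPM in perinatal cTEC (PcTEC, 188 to 334 over libraries), 448 in mature cTEC (McTEC, 220.4 to 551) and 15.1 in mature mTEC (MmTEC). *Kcnk2* was at 308 CPM in PcTEC and 11.5 in MmTEC, and *Ackr4* at 243 and 17.2. *Kcne4*, with no read in bulk mTEC, was at 7.54 CPM in PcTEC (91 UMIs) and at 6.46 CPM in MmTEC (9 UMIs). The medullary genes peaked under different labels. *Aire* (1588 CPM, 1338 to 2596 over libraries), *Fezf2* (661), *Serpinb12* (370.3), *Cyp26a1* (186) and *Csn2* (2053, 849.5 to 2644 over libraries) were highest in MmTEC. *Myog* was highest in the 46 post-Aire mTEC (PAmTEC, 516 CPM, 383 to 573.5 over libraries, against 12.9 in MmTEC), and so was the muscle gene *Ttn* (2596 CPM). *Avil* was at 1144 CPM in the 13 tuft-like cells (TlTEC, 978 to 1689 over the 2 libraries that held any) and at 0.718 in MmTEC. *Chga* was at 787 CPM in the 15 cells labelled structural TEC (sTEC), with 0 to 979 CPM over libraries.

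Some genes that set sorted mTEC apart were not led by mature mTEC. *Ccl21a* was at 5046 CPM in intertypical TEC (ItTEC, 4175 to 6814 over libraries), the label of 664 cells, against 531 in MmTEC and 212 in PcTEC. *Krt14* (433, 142 and 59.3 CPM) had the same order. *Krt5* was also highest in ItTEC (735 CPM), but was lower in MmTEC (96.9 CPM) than in PcTEC (136.8 CPM). The cycling genes *Cdk1* and *Top2a* were highest in proliferating TEC (PrTEC, 199 and 437 CPM). Markers of other lineages were also present under the mature mTEC label. *Lyz2* was at 399 CPM in MmTEC (241 to 495 over libraries) and at 2.07 in PcTEC. *Msln* was at 334 CPM in MmTEC (220.1 to 547) and at 1.33 in PcTEC. *C1qa* was at 84.7 CPM in MmTEC and 0.332 in PcTEC, and its MmTEC value rested on 1 library, with 0, 15.03 and 150.8 CPM in the 3. *Col1a1* and *Rgs5* were at 111 and 164 CPM in MmTEC, at 83.7 and 49.9 CPM in PcTEC, at 769.7 and 278 CPM in PAmTEC, at 256 and 190.8 CPM in ItTEC and at 1661 and 167.8 CPM in cells labelled neural TEC (nTEC). *Ifi44* was at 126.9 CPM in PcTEC and 7.18 in MmTEC.

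**Figure D4:**
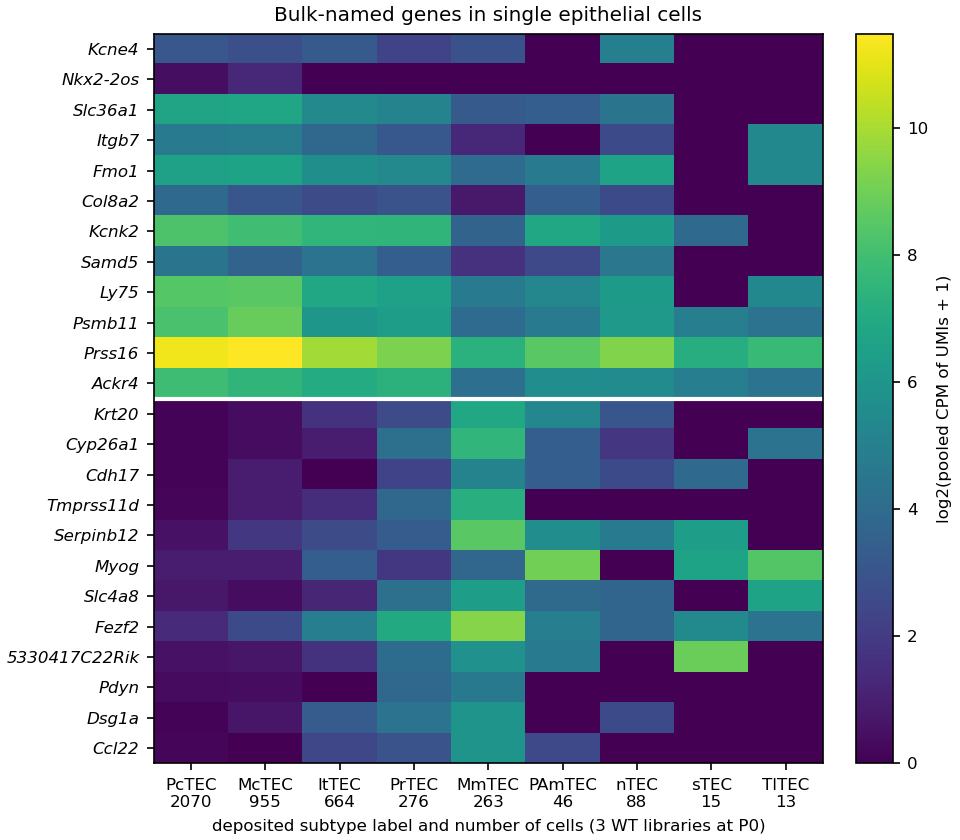
Pooled level of the 24 genes named by fold change in bulk, as log2(CPM of UMIs + 1), under the 9 epithelial labels of the 3 wild-type single-cell libraries at P0, with the number of cells under each label. Genes above the white line were higher in bulk cTEC and 8 of these 12 are brightest under PcTEC or McTEC. Genes below it were higher in bulk mTEC and are brightest under MmTEC, except Myog under PAmTEC, 5330417C22Rik under sTEC and Slc4a8 under TlTEC.

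Whether the contrast at birth was the one seen later was tested against 6 cTEC and 6 mTEC-all libraries of wild-type mice at 4 weeks. The test was that of the difference between the 2 contrasts, over 17284 genes and 24 libraries. It called 954 genes (5.52%), 206 (1.19%) with a cTEC minus mTEC difference higher at P0 and 748 (4.33%) with one lower at P0. DESeq2 called 1500 genes, 516 of them higher at P0. With library numbers that differ by 12 as a replicate block, 545 genes were called, 118 higher and 427 lower at P0. Of the 954 genes, 476 kept their call there. The median difference over all tested genes was -0.21, and -0.05 with relative log expression scaling, so differences of single genes are to be read against that shift. The thymocyte genes summed to 612 to 2741 CPM in cTEC at 4 weeks and to 29.8 to 59.9 CPM at P0. In mTEC these sums were 42.2 to 126 CPM at 4 weeks and 60.7 to 120.3 CPM at P0. The erythroid genes summed to 593 to 4492 CPM in mTEC and 33.7 to 1338 CPM in cTEC at 4 weeks, and to at most 51.2 CPM at P0. Fibroblast genes in cTEC summed to 366 to 2674 CPM at 4 weeks and 14.97 to 119.1 CPM at P0. The part of these markers in the differences was not tested.

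The cortical and medullary genes separated unevenly with age. *Prss16* and *Psmb11* had log2 fold changes of 4.35 and 4.36 at P0 and 8.30 and 8.07 at 4 weeks (adjusted p of the difference = 4.76e-06 and 0.0121). In mTEC, *Prss16* was at 576 ± 289 CPM at P0 and 48.6 ± 16.1 CPM at 4 weeks, while in cTEC it was at 11746 ± 3514 and 15331 ± 3858 CPM (SD, n = 6). *Ccl21a* and *Krt14* had a wider gap at P0 (-2.82 and -2.40) than at 4 weeks (-0.62 and -0.43). In mTEC *Ccl21a* was at 1439.6 ± 618 CPM at P0 and 4351.5 ± 1815 CPM at 4 weeks. Of the cortical list 6 of 16 genes were called in this test, all lower at P0, against 4.33% of all tested genes, and of the medullary list 7 of 19, of which 6 were lower at P0.

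By the smallest p, the genes whose difference was lower at P0 were *Rac2*, *Ikzf1*, *Il2rg*, *Hepacam2*, *Tnfrsf8* and *Mfng*. All of them were near or at 0 in cTEC at P0. *Ikzf1*, a transcription factor of lymphoid cells, was at 0.601 ± 0.601 CPM in cTEC and 129.7 ± 19.2 CPM in mTEC at P0, and at 62.3 ± 24.2 and 54.2 ± 21.0 CPM at 4 weeks (SD, n = 6). *Rac2*, a GTPase of blood cells, was at 2.28 ± 1.09 and 401 ± 26.7 CPM at P0 and at 137.4 ± 67.1 and 364 ± 118 CPM at 4 weeks. *Il2rg*, the common cytokine receptor chain, was at 2.03 ± 1.30 and 881 ± 167.8 CPM at P0 and at 166 ± 63.9 and 761 ± 246 CPM at 4 weeks. Single cells labelled MmTEC held 321 CPM of *Rac2* and 245 of *Il2rg*, against 2.98 and 2.74 in PcTEC. *Hepacam2*, an adhesion molecule, and *Tnfrsf8*, the receptor CD30, were at 76.6 ± 33.4 and 123 ± 38.2 CPM in mTEC at P0.

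Those whose difference was higher at P0 were *Glipr2*, *Pnmal2*, *Rbbp7*, *Gm6999*, *Gsta4* and *Msc*. *Gsta4*, a glutathione transferase for lipid peroxidation products, was at 97.2 ± 24.1 CPM in cTEC and 11.1 ± 7.85 CPM in mTEC at P0 and at 64.9 ± 20.3 and 92.8 ± 28.7 CPM at 4 weeks (SD, n = 6). *Msc*, a basic helix-loop-helix repressor, was at 215 ± 42.02 and 131.9 ± 27.2 CPM at P0 and at 59.1 ± 22.1 and 160.8 ± 45.3 CPM at 4 weeks. *Rbbp7*, a histone-binding chromatin subunit, had log2 fold changes of 0.21 at P0 and -0.94 at 4 weeks. Cell cycle genes were called lower at P0 in 16 of 24 cases, against 4.33% of all tested genes, with a median log2 fold change of -1.16 at P0 and 1.06 at 4 weeks, where thymocyte genes, 13 of 14 of them called, had a median log2 fold change of 5.41. The mesothelial genes, at 6.86 to 2093 CPM in cTEC at 4 weeks as a sum, were called lower at P0 in all 3 cases.

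**Figure D5:**
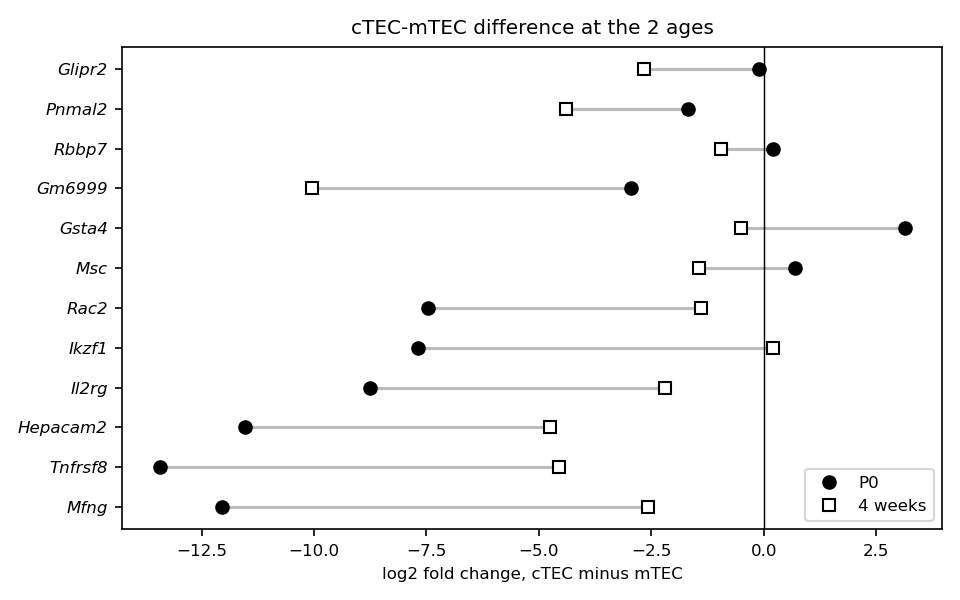
Fitted log2 fold change (cTEC minus mTEC) at P0 (filled circles) and at 4 weeks (open squares), 6 libraries a group at each age. For each direction the 6 genes with the smallest p of the difference between ages are shown, among those with a mean of at least 10 CPM in some group. The upper 6 genes lie further toward cTEC at P0 and the lower 6 further toward mTEC, and values beyond about -10 rest on cTEC libraries with no or 1 read.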

How the data were processed

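Bulk libraries of 6 cTEC and 6 mTEC-all samples at P0 were compared, with the 6 and 6 wild-type libraries at 4 weeks for the difference between ages. The deposited bulk values are raw read counts per Ensembl gene, made by the authors with STAR 2.5.3a and HTSeq on mm10 as named in the submitters' processing notes, which assign no roles. The strand setting is not given in the sources used here. Spike-in and unassigned entries, the latter 10.8 to 13.1% of counts, were left out. Depth was 8481373 to 12839118 counts per library at P0 and 5785352 to 13355031 at 4 weeks, and intervals and floors cover counting error only. The deposited single-cell values are UMI counts that the authors made with Cell Ranger 3.1.0 and filtered on genes, mitochondrial share, doublets and contaminating clusters. The single cells sorted without epithelium were not used here.

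The study's methods state no test for the bulk counts. Genes passing filterByExpr were TMM scaled and tested with edgeR 4.0.16 (glmQLFit, glmQLFTest, R 4.3.3), with Benjamini-Hochberg adjustment over all tested genes and a threshold of 0.05. Fold changes against a group with no read use a floor of 3 counts over the group. Detected genes were compared by exact permutation after thinning in expectation to the smallest library. Named genes were members of the lists and, per direction, the 12 called genes with the largest fold change among those with a mean of at least 10 CPM and no overlap of libraries, and for the ages the 6 with the smallest p. *Ddx3y* and *Epcam* were named outside this rule. The comparison and the lists were chosen with earlier results of these data known. Symbols, promoters and start sites came from RefSeq (GRCm38.p6). Alternatives were relative log expression scaling, no filter, DESeq2 1.42.0, the label prefix as a term or as a subset, a replicate block, each library left out, and other detection limits. The scripts were tested on simulated data. Values of 1 member of the interferon-stimulated list are not reported here.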

Additional observations from a re-analysis of the deposited data

Results flagged for a closer look

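In each group of 6 libraries, the highest and the lowest value were compared with the rest. This was done for named genes with a mean of at least 10 CPM in that group and for library measures such as gene counts. A value was singled out where its gap to the nearest other library exceeded Dixon's 95% critical value as a share of the range of its group. Of 238 groups, 27 held such a value (11.3%). The critical value singles out about 1 in 20 groups of independent, normally distributed values. Values of different genes in the same libraries need not be so, and the excess was not tested. The sixth mTEC and the fifth cTEC library held the most. The second cTEC library lay far above the others of its group in *Isg15* (82.9 CPM). The fourth cTEC library lay far above the others of its group in *Isl1* (149.1 CPM). The fifth cTEC library lay far above the others of its group in *Ccl25* (3454 CPM), *Psmb10* (496 CPM), *Psmb9* (183 CPM) and *Pth* (142 CPM) and far below the others of its group in *Cxcl16* (76.6 CPM). The sixth cTEC library lay far above the others of its group in *Cd40* (145 CPM), *Ctsd* (439 CPM), *Krt14* (140.0 CPM) and *Lgmn* (248 CPM). The first mTEC library lay far above the others of its group in *Cd80* (66.999 CPM). The second mTEC library lay far above the others of its group in *Ccl19* (189.9 CPM) and *Cd74* (63969 CPM). The third mTEC library lay far above the others of its group in *Rgs5* (3431 CPM). The fourth mTEC library lay far above the others of its group in *Nlrc5* (33.4 CPM) and far below the others of its group in *Mfng* (22.9 CPM). The fifth mTEC library lay far above the others of its group in *Krt15* (139.1 CPM) and far below the others of its group in *Ciita* (99.4 CPM) and *Top1* (38.4 CPM). The sixth mTEC library lay far above the others of its group in *Ctsd* (215 CPM) and *Krt14* (473 CPM) and far below the others of its group in *Cdk1* (68.4 CPM), *Csn2* (527 CPM), *Rrm2* (143.5 CPM) and *Tmprss11d* (153 CPM). The fourth mTEC library also had the fewest genes at equal depth, 18024. The fifth cTEC and the fifth mTEC library were the only ones with reads of the Y-linked *Ddx3y*, at 174 and 63.0 CPM.

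The cTEC minus mTEC difference itself changed between P0 and 4 weeks for the following genes, by edgeR's test of the difference. Values are the P0 log2 fold change minus that at 4 weeks. It was lower at P0 for *Mfng* (-9.47), *Tnfrsf8* (-8.87), *Ikzf1* (-7.90), *Hepacam2* (-6.77), *Il2rg* (-6.56), *Rac2* (-6.05), *Prss16* (-3.95), *Psmb11* (-3.71), *Ccl21a* (-2.20) and *Krt14* (-1.97). It was higher at P0 for *Rbbp7* (1.15), *Msc* (2.14), *Glipr2* (2.55), *Pnmal2* (2.70), *Gsta4* (3.65) and *Gm6999* (7.07). The value of *Gm6999* rests on cTEC at 4 weeks with no read, and those of *Mfng* and *Tnfrsf8* on cTEC at P0 with no read. That of *Hepacam2* rests on cTEC at P0 with 1 read over the 6 libraries. The sizes of these 4 values depend on the small count that edgeR adds.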

How the results depend on the processing

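No gene called at P0 was called in the other direction under any alternative. Without a filter on low counts 6906 genes were higher in mTEC, since 25952 genes were tested. With 1 library left out at a time, 5991 to 6881 genes were called, 2212 to 2389 higher in cTEC and 3779 to 4570.0 in mTEC, and the difference in detected genes was 4470.5 to 4893. Within DFCK libraries alone 4141 genes were called, 1198 of them higher in cTEC, and with 3 libraries a group 14 named genes lost their call, namely, with their log2 fold changes there, *Bmp2* (-3.35), *Fgfr2* (1.15), *Foxn1* (0.79), *Il15ra* (0.77), *Msc* (0.75), *Nkx2-2os* (4.63), *Notch2* (1.06), *Parp1* (-1.79), *Psmb10* (0.67), *Pth* (6.32), *Sirt1* (-1.75), *Top1* (0.56), *Top2a* (-0.98) and *Traf5* (2.67). Within TXCK libraries *Hes1* (0.90), *Igf1* (-3.47), *Pth* (2.48) and *Slc5a5* (1.84) did. The difference in detected genes was 5061 within TXCK and 4115.6 within DFCK libraries, each at an exact permutation p of 0.1, the smallest that 3 against 3 allow. Interferon-stimulated genes called higher in mTEC numbered 1 with relative log expression, 2 with DESeq2 and 1 without the fourth mTEC library, an alternative chosen after seeing the data. *Usp18* was also called within TXCK libraries (-0.52). With DESeq2 1 parathyroid gene, *Casr*, was called higher in mTEC. Single libraries decided some calls. *Casr* was called without the sixth cTEC (-1.62) or the third mTEC (-1.55) library. *Chga* was called without the fifth cTEC (-3.41) library. *Mki67* was called without the second cTEC (-2.73) or the fifth cTEC (-2.54) library. *Mx1* was called without the second cTEC (-3.26) library. *Pth* lost its call without the fifth cTEC (2.80) library. *Rbbp7* was called without the first cTEC (0.32) or the second cTEC (0.32) or the sixth cTEC (0.33) or the first mTEC (0.33) library. *Usp18* was called without the fourth mTEC (-0.52) library. Genes that were not called changed sign. *Chga* was at 1.53 within DFCK libraries. *Ciita* was at 0.037 within TXCK libraries and at -0.20 to 0.076 with 1 library left out, above 0 without the first mTEC (0.043) or the fifth cTEC library. *Glipr2* was at 0.15 within DFCK libraries and at -0.17 to 0.053 with 1 library left out, above 0 without the fifth mTEC (0.029) or the second cTEC library. For the difference between ages DESeq2 called 1500 genes, 516 of them higher at P0. Library numbers that differ by 12 are not stated to pair samples, and deviations of such libraries correlated at 0.0248 to 0.153, with 4 of 6 cTEC libraries closest to the mTEC library of their own number. With these numbers as a replicate block, 6088 of 6481 genes kept their call at P0, *Pth* lost it (1.93) and *Mx1* gained one (-4.06), and the difference between ages was called for 545 genes, 118 higher and 427 lower at P0, with 476 of the 954 genes keeping their call. The causes were not tested. In data simulated at this depth and spread, edgeR recovered 21.6% of 2-fold and 55.4% of 4-fold changes.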
